A study of Mus musculus with 9 samples.

Results

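The chemokine ligands described here were the entries of the deposited FPKM table whose symbol was *Ccl* or *Cxcl* followed by a number and at most 1 letter, together with *Cx3cl1* and *Xcl1*. This rule found 35 of the 31274 entries and used no measured value. FPKM is a level in sequenced fragments, scaled for the exon length of a gene and the depth of its library. Of the 35 ligands, 23 exceeded a mean of 1 FPKM in either genotype and entered the test, which covered 14728 genes. The libraries came from whole uteri of C57BL/6 mice on pseudopregnancy day 4.5, the receptive phase, after mating with vasectomized males, so that no embryo was present. There were 4 libraries of the genotype *Wnk1f/f*, which carry the floxed *Wnk1* alleles without Cre, and 5 of the genotype *Wnk1d/d*, in which Cre driven by the progesterone receptor gene removes exon 2 of *Wnk1*. Each library was made from the RNA of 1 mouse, and *Wnk1* encodes a serine/threonine kinase best known for its control of ion transport. Excision follows the progesterone receptor, so cells that the study takes to lack that receptor, immune and endothelial, keep the gene.

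Chemokines are small secreted proteins that direct the movement of leukocytes by binding G protein-coupled receptors on the responding cell. Both large families are named for the spacing of their first cysteines: CC ligands mainly attract monocytes, macrophages, eosinophils and lymphocytes, whereas CXC ligands with an ELR motif attract neutrophils and those induced by interferon attract activated T and NK cells. In the uterus, epithelium, stroma, vessels and resident macrophages all make chemokines, and around implantation these ligands take part in placing uterine NK cells, macrophages and dendritic cells. In bulk RNA of a whole organ, fewer cells of a type and less RNA per cell cannot be told apart.

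*Wnk1* itself was 45.3 ± 1.62 FPKM in *Wnk1f/f* and 31.2 ± 1.62 in *Wnk1d/d* (SD, n = 4 and 5), with no overlap between the genotypes (log2 fold change -0.52, SE 0.06, limma adjusted p = 0.0017, exact two-sided permutation p = 0.0079, the smallest that 4 against 5 libraries can give). The markers of uterus (*Hoxa10*, *Hoxa11*, *Hand2*, *Pgr*, *Esr1*, *Foxa2*) were present in every library, in sums of 578 to 634 and 387 to 499 FPKM. These sums did not overlap and were lower in *Wnk1d/d*. *Hoxa11* was called lower (limma adjusted p = 0.0065). *Hoxa10* and *Hand2* were lower by the adjusted p alone (limma adjusted p = 0.0062 and 0.029). In *Wnk1d/d* replicate 4, a single entry took 70.3% of the summed FPKM, where the highest entry took 6.43% to 13.8% in the other 8 libraries. *Wnk1f/f* replicate 4 held liver transcripts such as *Alb* at a sum of 144 FPKM over 5 genes, against 0.41 to 4.81 in the others. Both of these libraries stand apart and were kept. Called ligands and receptors, and several others that move without them, are given with and without them. Genes of the other lists are given with all 9 libraries only. Of those, 30 were called with all libraries and 21 without the 2 that stand apart. The median log2 level over tested genes lay between 3.79 and 3.82 in all 9 libraries. The deposited FPKM carry no read counts, so the depth of each library is unknown. Smooth muscle markers (6 of 6 called higher, such as *Actg2*, *Cnn1* and *Des*, with *Tagln* the most abundant; sums of 2800 to 6370 and 7210 to 13700 FPKM) and blood endothelial markers (6 of 6 called lower, such as *Vwf*, *Cdh5* and *Tek*, with *Pecam1* the most abundant; sums of 331 to 367 and 131 to 266 FPKM) differed between the genotypes. Their part in the ligand results was not tested.

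Chemokine ligands differed between the genotypes in both directions, and more of them were higher in *Wnk1d/d*. A ligand was called where its limma adjusted p was under 0.05 and its ratio of mean FPKM at least 1.5. By this rule *Ccl7*, *Ccl12*, *Cxcl5*, *Cxcl14*, *Cxcl17* and *Ccl28* rose and *Xcl1* fell. That is 7 of the 23 tested ligands, or 30.4%, where 10.3% of all tested genes were called. The 6 that rose were 26.1% of the tested ligands against 5.09% of all tested genes, and the 1 that fell was 4.35% against 5.18%. By the adjusted p alone 9 ligands passed (39.1%, against 22.1% of all tested genes), the additional members being *Cxcl12* and *Ccl27a*, both lower by less than the ratio. Libraries of the genotypes did not overlap for 4 ligands (17.4%), a share close to the 19.9% of all tested genes; 3 of these were higher (13.0% against 9.27%) and 1 lower (4.35% against 10.6%). The median log2 fold change was 0.47 over the tested ligands and 0.00 over all tested genes. These shares include *Cxcl1* and *Cxcl5*, which passed the 1 FPKM filter only through *Wnk1d/d*, and *Cxcl9*, which passed only through *Wnk1f/f*.

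**Figure D1:**
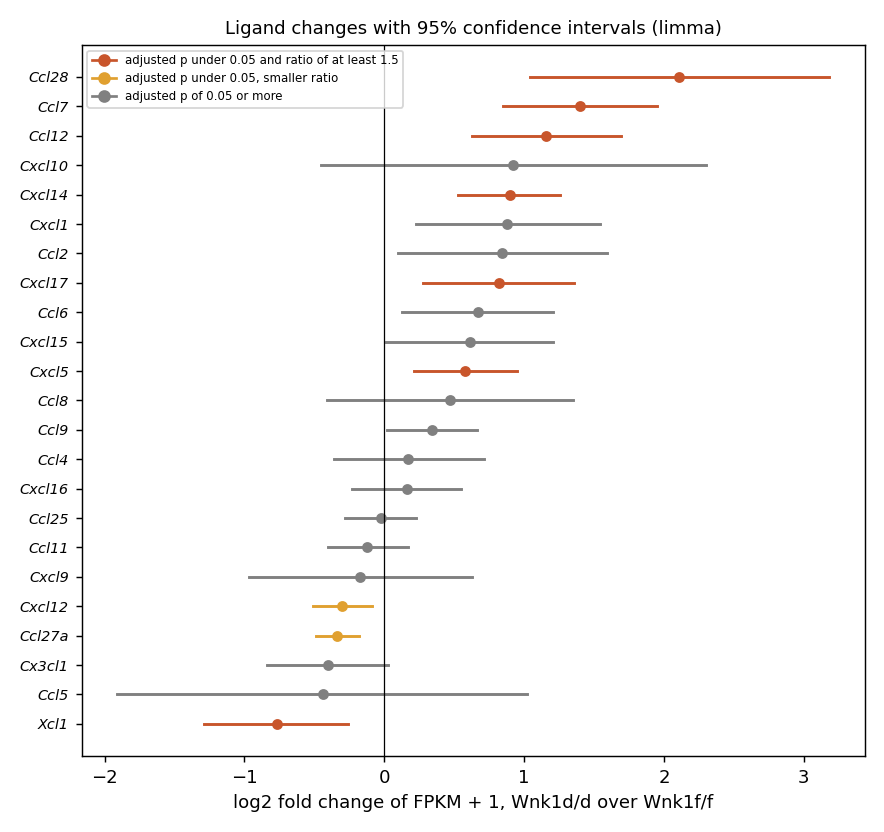
Log2 fold change of FPKM + 1, *Wnk1d/d* over *Wnk1f/f*, for the 23 tested ligands, with the 95% confidence interval of the limma fit as a line. Red marks the 7 called ligands and yellow the 2 that passed by adjusted p alone; the intervals run from *Ccl28* at the top (2.11) to *Xcl1* at the bottom (-0.77), and those of *Cxcl10* and *Ccl5* are the widest.

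Mean levels of the tested ligands spanned from 0.540 FPKM, for *Cxcl1* in *Wnk1f/f*, to 222 FPKM, for *Cxcl17* in *Wnk1d/d*. In both genotypes 20 ligands were above 1 FPKM, *Cxcl9* was above it in *Wnk1f/f* only, *Cxcl1* and *Cxcl5* in *Wnk1d/d* only, and 12 in neither. 4 ligands were above 50 FPKM in both genotypes: *Cxcl17*, *Ccl8*, *Cxcl12* and *Cxcl14*. Together they made up 72.1% to 80.8% of the summed FPKM of the ligands found by the symbol rule in a library. Within that set the pool was mainly that of a mucosal chemokine, the CC ligand *Ccl8* and a pair of homeostatic chemokines. The sum leaves out entries outside the symbol rule, such as *Gm21541*, whose longest transcript nearly matches that of the CCR7 ligand *Ccl21a*. The means of *Gm21541* were 96.1 FPKM in *Wnk1f/f* and 84.1 FPKM in *Wnk1d/d*. The filter fell between *Cxcl9*, whose higher mean was 1.34 FPKM, and *Ccl3*, whose higher mean was 0.90 FPKM.

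**Figure D2:**
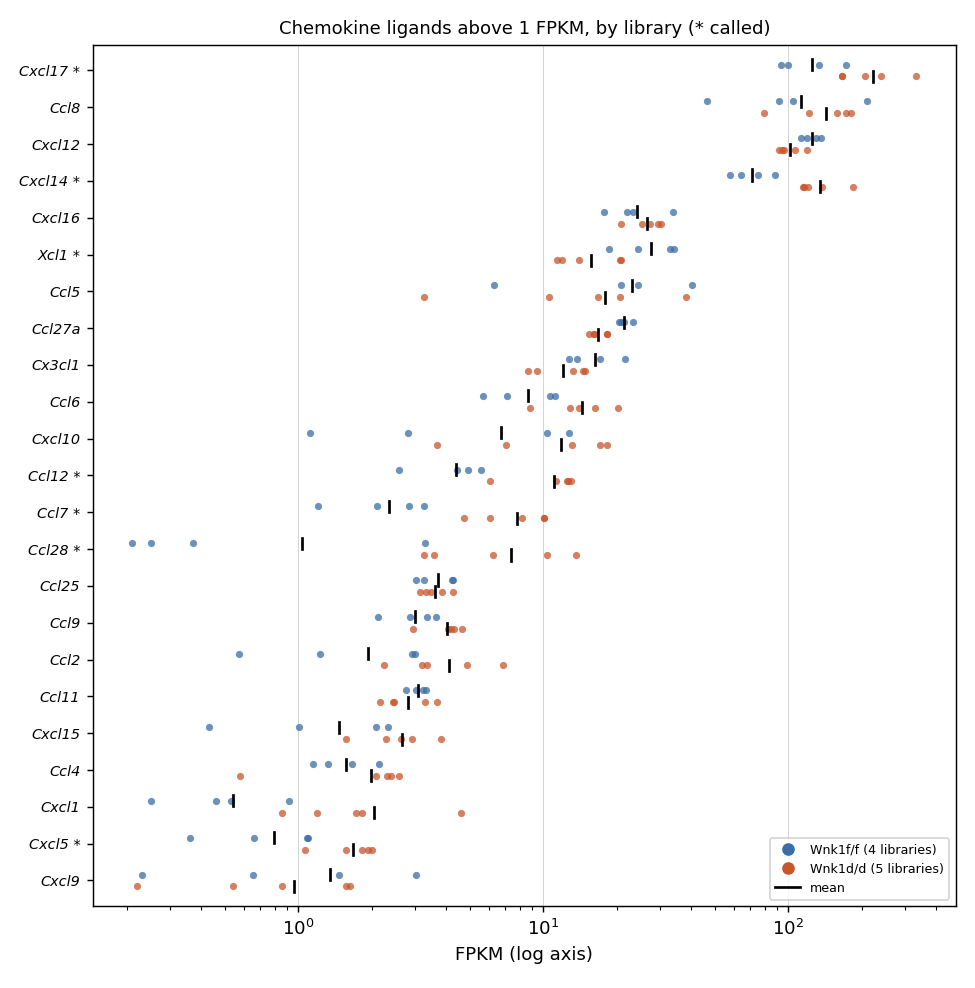
FPKM on a log axis for the 23 tested ligands, ordered by their mean, with 1 point per library (blue, 4 *Wnk1f/f*; red, 5 *Wnk1d/d*), a black bar at each genotype's mean and a star on called ligands. *Cxcl17*, *Ccl8*, *Cxcl12* and *Cxcl14* stand at the top, and *Ccl7*, *Ccl12* and *Cxcl14* have all 5 *Wnk1d/d* points to the right of the *Wnk1f/f* points.

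Upstream sequence is shown for the ligands on which the comparison turns, as far as the RefSeq promoter set for GRCm38.p6 held them, because it lets the called ligands be compared with *Ccl8*, a close neighbour of *Ccl12* that was not called. Each window runs 5′ to 3′ on the gene's strand from 250 bases before the start of transcription to 50 after it. *Ccl12* lies at chr11:82101595-82101894 (plus strand), *Ccl8* at chr11:82114935-82115234 (plus), *Ccl28* at chr13:119623569-119623868 (plus), *Cxcl14* at chr13:56296502-56296801 (minus) and *Xcl1* at chr1:164935473-164935772 (minus). Capitals mark a TATA box in *Ccl12* and *Ccl8*, an AP-1 match in *Ccl28* and a match to the interferon-stimulated response element in *Cxcl14*.
Ccl12: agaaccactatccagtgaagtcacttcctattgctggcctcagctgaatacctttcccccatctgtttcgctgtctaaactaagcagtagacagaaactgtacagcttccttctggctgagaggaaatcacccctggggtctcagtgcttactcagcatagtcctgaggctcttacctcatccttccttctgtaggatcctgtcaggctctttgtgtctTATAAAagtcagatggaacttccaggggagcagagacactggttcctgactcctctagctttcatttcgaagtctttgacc
Ccl8: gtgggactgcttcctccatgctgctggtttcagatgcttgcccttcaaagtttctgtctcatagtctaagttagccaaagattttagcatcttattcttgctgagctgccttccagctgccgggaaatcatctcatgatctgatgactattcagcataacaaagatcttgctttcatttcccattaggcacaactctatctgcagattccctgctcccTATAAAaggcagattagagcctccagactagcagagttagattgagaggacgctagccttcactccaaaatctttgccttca
Ccl28: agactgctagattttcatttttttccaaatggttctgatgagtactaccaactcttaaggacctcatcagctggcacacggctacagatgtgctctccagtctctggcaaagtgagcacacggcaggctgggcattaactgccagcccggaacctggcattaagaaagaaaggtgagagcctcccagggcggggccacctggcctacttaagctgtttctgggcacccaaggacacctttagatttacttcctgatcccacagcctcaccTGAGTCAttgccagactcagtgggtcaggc
Cxcl14: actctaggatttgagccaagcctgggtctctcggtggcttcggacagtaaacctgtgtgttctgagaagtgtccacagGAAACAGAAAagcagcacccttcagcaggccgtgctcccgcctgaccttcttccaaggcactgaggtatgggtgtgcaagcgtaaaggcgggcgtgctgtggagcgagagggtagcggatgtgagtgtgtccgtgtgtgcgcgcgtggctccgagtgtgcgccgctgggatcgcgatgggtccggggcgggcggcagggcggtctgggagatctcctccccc
Xcl1: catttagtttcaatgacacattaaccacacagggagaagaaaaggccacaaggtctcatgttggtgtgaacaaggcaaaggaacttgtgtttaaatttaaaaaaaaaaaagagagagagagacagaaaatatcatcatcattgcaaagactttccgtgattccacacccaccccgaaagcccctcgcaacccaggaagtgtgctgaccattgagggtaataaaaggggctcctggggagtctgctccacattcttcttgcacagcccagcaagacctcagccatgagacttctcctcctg

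Of the 35 ligands, 24 had a window, with 27 windows between them. The called ligands *Ccl7*, *Cxcl5* and *Cxcl17* had none. A ligand was counted where any of its windows matched, whereas the percentages of all windows count each window singly. TATAAA stood at positions -31 to -26 of *Ccl12* and -32 to -27 of *Ccl8*, and these 2 windows were 58.0% identical (193 of 333 aligned positions) against 46.9% to 51.1% for the other pairs among the 5. Searched on both strands, TATAAA was in the windows of 9 of the 24 ligands and in 13.6% of all 32851 windows. The AP-1 letters TGANTCA stood at 21 to 27 of *Ccl28*, in 5 of the 24 ligands and in 7.81% of all windows. The interferon element, searched as GAAA, any 2 bases and GAAA, stood at -172 to -163 of *Cxcl14*, in 3 ligands (*Ccl19*, *Cxcl10* and *Cxcl14*) and in 3.44% of all windows. The NF-kappaB consensus was in 8 ligands, *Ccl1*, *Ccl9*, *Ccl20*, *Ccl27a*, *Cxcl1*, *Cxcl2*, *Cxcl3* and *Cxcl10*, and in 8.46% of all windows. The forkhead letters TGTTTAC were in none of the 24 and in 3.65% of all windows. No motif searched overlaps another in its letters, *Xcl1* held none of them, and a match describes the letters only.

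The monocyte and myeloid CC ligands, most of which act on CCR2 or CCR1, had 2 called higher among 6 tested, where 5.09% of all tested genes were. All 6 had a higher mean in *Wnk1d/d*, as did 15 of the 23 tested ligands. Each of the 6 was lowest in replicate 1 among the controls and in replicate 4 among *Wnk1d/d*. Their shared direction is therefore not 6 separate observations. *Ccl7* encodes a monocyte attractant that binds CCR2 and other receptors. It was 1.20, 2.09, 3.26 and 2.83 FPKM in the 4 *Wnk1f/f* libraries and 6.06, 10.06, 10.02, 4.75 and 8.17 FPKM in the 5 *Wnk1d/d* libraries. Every *Wnk1d/d* library was thus above every control, with replicate 4 the lowest of them. The mean rose from 2.34 ± 0.903 to 7.81 ± 2.37 FPKM, a ratio of 3.33 (log2 fold change 1.40, SE 0.25, limma adjusted p = 0.007, exact permutation p = 0.0079).

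*Ccl12*, a CCR2 ligand of rodents related to CCL2, behaved alike. It was 2.58, 5.55, 4.94 and 4.46 FPKM in *Wnk1f/f* and 11.25, 12.59, 12.47, 6.08 and 12.96 FPKM in *Wnk1d/d*. No library overlapped, although replicate 4 of *Wnk1d/d* was only just above the highest control. The mean rose from 4.38 ± 1.28 to 11.1 ± 2.86 FPKM, a ratio of 2.53 (log2 fold change 1.16, SE 0.24, limma adjusted p = 0.011, exact permutation p = 0.016). Without the libraries that stand apart, *Ccl7* and *Ccl12* kept their calls, with log2 fold changes of 1.62 and 1.36 (limma adjusted p = 0.017 and 0.014).

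*Ccl2*, the principal CCR2 ligand, was 0.57, 2.99, 1.22 and 2.91 FPKM in *Wnk1f/f* and 3.36, 4.90, 6.84, 2.23 and 3.19 FPKM in *Wnk1d/d*. All but replicate 4 of *Wnk1d/d* were above the controls, and controls 1 and 3 were low. The means were 1.92 ± 1.22 and 4.10 ± 1.80 FPKM, a ratio of 2.13 that did not pass (log2 fold change 0.84, 95% confidence interval 0.10 to 1.59, limma adjusted p = 0.094). *Ccl8*, made by tissue macrophages, was by far the most abundant of the CC ligands found by the symbol rule. It was 46.62, 91.42, 104.11 and 209.92 FPKM in *Wnk1f/f* and 158.39, 121.85, 179.78, 79.48 and 172.50 FPKM in *Wnk1d/d*. The control range contained the whole *Wnk1d/d* range. With means of 113 ± 69.1 and 142 ± 41.7 FPKM the difference did not pass (log2 fold change 0.47, 95% confidence interval -0.41 to 1.35, limma adjusted p = 0.40). A change of the size fitted for *Ccl12* lies inside that interval. Without the libraries that stand apart the *Ccl8* log2 fold change was 1.03 (limma adjusted p = 0.06).

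*Ccl6* and *Ccl9* encode CCR1 ligands of macrophages and other myeloid cells. *Ccl6* was 5.69, 7.11, 11.13 and 10.68 FPKM in *Wnk1f/f* and 16.22, 20.08, 12.83, 8.85 and 13.96 FPKM in *Wnk1d/d*, with only replicate 4 of *Wnk1d/d* inside the control range. The means of 8.65 ± 2.67 and 14.4 ± 4.15 FPKM did not differ by the test (log2 fold change 0.67, SE 0.24, limma adjusted p = 0.071, exact permutation p = 0.056). It was called without the libraries that stand apart (log2 fold change 0.93, limma adjusted p = 0.046). *Ccl9* ranged from 2.11 to 3.64 FPKM in *Wnk1f/f* and from 2.93 to 4.66 FPKM in *Wnk1d/d*, again with 4 of 5 libraries above the controls, and did not pass (log2 fold change 0.34, SE 0.14, limma adjusted p = 0.11).

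Macrophage marker levels are given beside these ligands, since macrophages are a main source of them. Their summed FPKM over 8 genes was 206 to 381 in *Wnk1f/f* and 245 to 397 in *Wnk1d/d*. Of the 8, 1 was called, where 10.3% of all tested genes were. This was *Cd14*, the lipopolysaccharide co-receptor, which rose 2.04-fold to a mean of 102 ± 22.6 FPKM (log2 fold change 1.02, limma adjusted p = 0.0087). *C1qa*, the most abundant of the list, was 104 ± 30.7 and 99.3 ± 15.3 FPKM (limma adjusted p = 0.91). The part of macrophage number in the ligand levels was not tested.

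Of the CC ligands on chromosome 11, all but *Ccl1* lie in 2 blocks (GENCODE M21, mm10), and the called ones lay in the first. The block *Ccl2*, *Ccl7*, *Ccl11*, *Ccl12* and *Ccl8* spans chr11:82035571-82116799, 81 kb, and holds no coding gene but these 5. Of them *Ccl7* and *Ccl12* rose. *Ccl11*, which encodes the eosinophil attractant eotaxin and lies between them, was 2.74 to 3.32 FPKM in *Wnk1f/f* and 2.15 to 3.68 FPKM in *Wnk1d/d* (log2 fold change -0.12, 95% confidence interval -0.40 to 0.17, limma adjusted p = 0.53; -0.06 without the libraries that stand apart). The upper limit of that interval is below the changes of both called neighbours. The block *Ccl5*, *Ccl9*, *Ccl6*, *Ccl3* and *Ccl4* spans chr11:83525778-83664683, 139 kb, and none of its 4 tested members was called. A test of the difference between the blocks was not made.

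**Figure D3:**
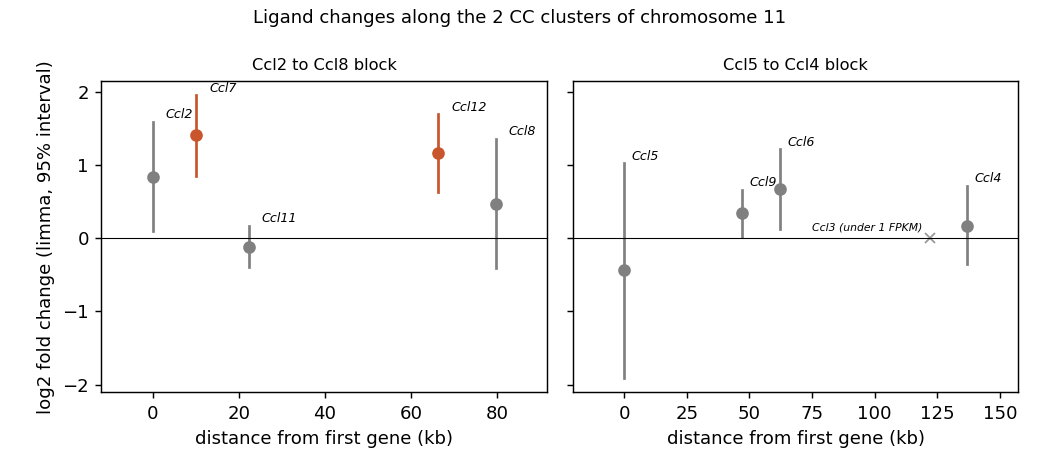
Log2 fold change with its 95% confidence interval against the distance in kb from the first gene of each block of CC ligands on chromosome 11; red marks called ligands and the cross *Ccl3*, which was under 1 FPKM. In the left block *Ccl7* and *Ccl12* are red on either side of *Ccl11*, whose value is -0.12; in the right block all tested members are grey.

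The inflammatory CC ligands *Ccl3*, *Ccl4* and *Ccl5*, which attract T cells, NK cells and macrophages, overlapped widely between the genotypes. *Ccl5* was 6.31, 24.43, 20.79 and 40.37 FPKM in *Wnk1f/f* and 38.11, 10.55, 20.50, 3.26 and 16.67 FPKM in *Wnk1d/d*, so the genotypes overlapped almost completely. Its log2 fold change was -0.44 with a 95% confidence interval of -1.91 to 1.02 (limma adjusted p = 0.65), and it turned to 0.01 without *Wnk1d/d* replicate 4 and to 0.35 without both libraries that stand apart. *Ccl4* was 1.15 to 2.14 FPKM in *Wnk1f/f* and 2.07 to 2.57 FPKM in *Wnk1d/d* except replicate 4, at 0.58 FPKM (log2 fold change 0.17, limma adjusted p = 0.62; 0.41 and 0.12 without the libraries that stand apart). *Ccl3* had means of 0.900 and 0.632 FPKM and was not tested. T cell markers summed to 17.8 to 48.8 FPKM over 6 genes in *Wnk1f/f* and 16.4 to 27.8 in *Wnk1d/d*, with *Lck* the most abundant, and none of the 4 tested was called. For these markers, as for *Ccl5*, control 1 was the lowest and control 4 the highest of the controls, and replicate 4 the lowest of *Wnk1d/d*.

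Neutrophil-attracting ELR CXC ligands, which act on CXCR2, were low. *Cxcl5*, an epithelial member, was 0.36, 0.66, 1.08 and 1.09 FPKM in *Wnk1f/f* and 1.92, 1.06, 1.99, 1.82 and 1.56 FPKM in *Wnk1d/d*. All *Wnk1d/d* libraries but replicate 2 were above the controls. The mean rose from 0.798 ± 0.354 to 1.67 ± 0.378 FPKM, a ratio of 2.09 (log2 fold change 0.58, SE 0.17, limma adjusted p = 0.035, exact permutation p = 0.032). Leaving out single libraries ended this call in 6 of 9 cases, namely without *Wnk1f/f* replicate 1 or 2 or *Wnk1d/d* replicate 1, 3, 4 or 5 (limma adjusted p = 0.065 to 0.084), and without both libraries that stand apart (limma adjusted p = 0.08).

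*Cxcl1*, the main inducible neutrophil attractant of the mouse, was 0.46, 0.25, 0.53 and 0.92 FPKM in *Wnk1f/f* and 4.59, 1.72, 1.82, 0.86 and 1.19 FPKM in *Wnk1d/d*. The ratio of means of 3.77 rested in part on replicate 1 of *Wnk1d/d*, and replicate 4 was inside the control range. It did not pass on the log2(FPKM + 1) scale (means 0.540 ± 0.280 and 2.04 ± 1.48 FPKM, log2 fold change 0.88, SE 0.29, limma adjusted p = 0.056). Without replicate 1 or without replicate 4 of *Wnk1d/d* it was called, as it was with a pseudocount of 0.1 or 0.01 in place of 1. *Cxcl15*, or lungkine, was 0.43 to 2.33 FPKM in *Wnk1f/f* and 1.57 to 3.83 FPKM in *Wnk1d/d* (log2 fold change 0.61, limma adjusted p = 0.12; 0.37 and 0.36 without the libraries that stand apart), and *Cxcl2* and *Cxcl3* were at most 0.23 FPKM in any library.

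Neutrophil transcripts were low and not called. The receptors *Cxcr1* and *Cxcr2* had means of at most 0.0175 FPKM, and the granule gene *Camp* was listed at 0 in all 9 libraries. The sum over 7 listed neutrophil markers was 1.96 to 9.19 FPKM in *Wnk1f/f* and 2.31 to 7.19 FPKM in *Wnk1d/d*, with none of 2 tested called. *Retnlg* was the most abundant (means of 2.36 and 0.734 FPKM), and *Csf3r* likewise had a lower mean in *Wnk1d/d* (1.19 and 0.836 FPKM). Higher means in *Wnk1d/d*, all under 1 FPKM, were those of *Mpo* (0.36 and 0.86), *S100a8* (0.665 and 0.982), *S100a9* (0.493 and 0.976) and *Ngp* (0.0125 and 0.018). *Csf3*, the growth factor of neutrophils, was 3.07, 12.20, 10.47 and 5.45 FPKM in *Wnk1f/f* and 50.72, 25.35, 37.58, 17.11 and 27.37 FPKM in *Wnk1d/d*. All *Wnk1d/d* libraries were above the controls, and the mean rose from 7.80 ± 4.26 to 31.6 ± 12.9 FPKM (log2 fold change 1.95, SE 0.39, limma adjusted p = 0.01). It was the only one of 3 tested inflammatory cytokines that was called; *Il1b*, *Il6* and *Tnf* were under 1 FPKM in both genotypes.

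The interferon-induced CXCR3 ligands, which attract activated T and NK cells, were not called. *Cxcl10* was 1.12, 12.73, 2.81 and 10.32 FPKM in *Wnk1f/f* and 7.04, 18.24, 16.95, 3.69 and 13.08 FPKM in *Wnk1d/d*. Controls 1 and 3 and replicate 4 of *Wnk1d/d* were low, and the ranges overlapped widely. Means of 6.75 ± 5.65 and 11.8 ± 6.29 FPKM gave a log2 fold change of 0.92 with a 95% confidence interval of -0.45 to 2.30 (limma adjusted p = 0.29). Without the libraries that stand apart it was 1.55 (limma adjusted p = 0.14). *Cxcl9* was 0.23 to 3.03 FPKM in *Wnk1f/f* and 0.22 to 1.63 FPKM in *Wnk1d/d* (log2 fold change -0.17, limma adjusted p = 0.75), and its log2 fold change was 0.29 without those libraries. Of 8 other interferon response genes, none was called, and their summed FPKM was 196, 807, 360 and 524 in *Wnk1f/f* and 444, 948, 436, 216 and 507 in *Wnk1d/d*. *Isg15* was the most abundant of them. The lowest and highest library of each genotype were the same for this sum and for *Cxcl10*, and the part of the interferon state of single mice in *Cxcl10* was not tested.

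Of the NF-kappaB targets and feedback genes, a list chosen for its link to inducible chemokines, 2 of 8 tested were called higher. Over all tested genes 5.09% were. *Nfkbia*, the inhibitor that is itself induced by NF-kappaB, had means of 90.1 ± 3.96 and 154 ± 22.4 FPKM (log2 fold change 0.76, limma adjusted p = 0.0028), and *Bcl3*, a nuclear cofactor of the pathway, 13.4 ± 4.88 and 25.7 ± 4.01 FPKM (log2 fold change 0.94, limma adjusted p = 0.018). Over the list, as over all tested genes, the median log2 fold change was 0.00.

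Mucosal ligands, made by epithelia, included the largest fold change and the highest level among the ligands. *Ccl28*, which draws IgA-secreting cells through CCR10 to mucosal surfaces, was 0.21, 0.25, 0.37 and 3.29 FPKM in *Wnk1f/f* and 13.54, 10.37, 6.21, 3.57 and 3.25 FPKM in *Wnk1d/d*. The first 3 controls were far below all *Wnk1d/d* libraries, and control 4 was level with the lowest of them. The mean rose from 1.03 ± 1.51 to 7.39 ± 4.47 FPKM, a ratio of 7.17 (log2 fold change 2.11, SE 0.48, 95% confidence interval 1.04 to 3.18, limma adjusted p = 0.016, exact permutation p = 0.016). Without the libraries that stand apart, of which control 4 is 1, the log2 fold change was 2.73 (limma adjusted p = 0.013).

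*Cxcl17*, a chemoattractant of mucosal epithelia for myeloid cells, had the highest mean of the ligands found by the symbol rule in both genotypes. In *Wnk1f/f* that mean was close to the 124 FPKM of *Cxcl12*, which was above *Cxcl17* in controls 1 and 4. *Ccl8* was above *Cxcl17* in control 4 and in replicate 5 of *Wnk1d/d*. The levels of *Cxcl17* were 93.48, 171.70, 133.29 and 99.73 FPKM in *Wnk1f/f* and 332.58, 238.54, 205.75, 165.31 and 165.52 FPKM in *Wnk1d/d*. Replicates 1 to 3 of *Wnk1d/d* were above all controls, and replicates 4 and 5 were just under control 2. The mean rose from 125 ± 36.0 to 222 ± 69.2 FPKM, a ratio of 1.78 (log2 fold change 0.82, SE 0.24, limma adjusted p = 0.039, exact permutation p = 0.048). The call was lost in 6 of the 9 fits with 1 library left out, namely without *Wnk1f/f* replicate 1, 3 or 4 or *Wnk1d/d* replicate 1, 2 or 3 (limma adjusted p = 0.057 to 0.10), and without both libraries that stand apart (limma adjusted p = 0.097).

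*Ccl27a*, the keratinocyte-type partner of *Ccl28* at CCR10, went the other way with little spread. It was 20.64, 23.16, 20.38 and 21.40 FPKM in *Wnk1f/f* and 15.41, 18.13, 16.04, 18.15 and 16.03 FPKM in *Wnk1d/d*, with every *Wnk1d/d* library below every control. The mean was 21.4 ± 1.25 and 16.8 ± 1.29 FPKM, so the adjusted p passed (log2 fold change -0.34, SE 0.07, limma adjusted p = 0.012) but the ratio of 0.783 did not reach the fold required. Its exons overlap those of *Il11ra1* on the opposite strand, whether counting used strand is not given in the sources used here, and near-identical copies of the gene exist in the mouse genome, so the level is uncertain. *Il11ra1* was 64.90 to 80.80 FPKM in *Wnk1f/f* and 59.78 to 77.85 FPKM in *Wnk1d/d* (limma adjusted p = 0.49). *Ccl25*, the thymus and gut ligand of CCR9, was 3.01 to 4.28 FPKM in *Wnk1f/f* and 3.13 to 4.27 FPKM in *Wnk1d/d* (log2 fold change -0.02, 95% confidence interval -0.28 to 0.23, limma adjusted p = 0.90). Opposite-strand overlaps of exons also exist for *Ccl25* with *Elavl1* (13.6 to 18.36 FPKM), *Cxcl10* with *Art3* (9.29 to 31.05) and *Cxcl16* with *Zmynd15* (3.63 to 7.84). The same uncertainty about strand applies to the levels of these ligands.

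General epithelial markers summed to 642 to 953 FPKM in *Wnk1f/f* and 639 to 1050 FPKM in *Wnk1d/d* over 6 genes, *Krt18* being the most abundant, and none was called. Uterine gland markers summed to 6600 to 10400 and 820 to 2720 FPKM over 5 genes, *Prss29* being the most abundant, with *Prss28*, *Prss29* and *Spink3*, which make up most of that sum, called lower. The other 2 gland markers were not called and had slightly higher means in *Wnk1d/d*: *Foxa2*, the gland transcription factor, 5.83 ± 1.36 and 6.78 ± 1.13 FPKM, and *Wfdc3* 10.9 ± 4.62 and 12.4 ± 3.14 FPKM. *Krt19* had means of 71.4 ± 30.2 and 98.8 ± 60.8 FPKM (log2 fold change 0.35, 95% confidence interval -0.63 to 1.33, limma adjusted p = 0.58). Its highest library, *Wnk1d/d* replicate 1 at 196.42 FPKM, was also the highest for *Ccl28* and *Cxcl17*, and so was that of *Krt8*, at 141.59 FPKM. The part of epithelial content in the ligand levels was not tested. The plasma cells that CCR10 ligands attract were represented by *Mzb1*, which fell from 5.82 ± 0.771 to 3.23 ± 0.580 FPKM (log2 fold change -0.69, limma adjusted p = 0.0066), the only one of 3 tested B and plasma cell markers that was called. The joining chain gene, listed as *Igj* and the most abundant of them, had means of 47.0 ± 33.8 and 31.0 ± 10.9 FPKM (limma adjusted p = 0.86).

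The 2 abundant homeostatic CXC ligands moved apart. *Cxcl14*, an epithelial and stromal chemokine that acts on monocytes, dendritic and NK cells, was 75.14, 57.95, 64.33 and 87.97 FPKM in *Wnk1f/f* and 114.82, 120.50, 183.09, 116.31 and 136.91 FPKM in *Wnk1d/d*. No library overlapped, and replicate 3 of *Wnk1d/d* was the highest. The mean rose from 71.3 ± 13.2 to 134 ± 28.6 FPKM, a ratio of 1.88 (log2 fold change 0.90, SE 0.16, limma adjusted p = 0.0077, exact permutation p = 0.0079), and without the libraries that stand apart the log2 fold change was 1.05 (limma adjusted p = 0.018). *Cxcl12*, the stromal and endothelial ligand of CXCR4, was 129.68, 119.04, 112.75 and 136.29 FPKM in *Wnk1f/f* and 91.63, 105.90, 95.75, 94.57 and 118.62 FPKM in *Wnk1d/d*. All but replicate 5 of *Wnk1d/d* were below the controls. Means of 124 ± 10.5 and 101 ± 11.1 FPKM gave a log2 fold change of -0.30 (SE 0.09), with the adjusted p near its threshold (limma adjusted p = 0.048) and a ratio of 0.814 short of the call. It did not pass without the libraries that stand apart (limma adjusted p = 0.20).

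Stromal markers, *Dcn* being the most abundant, were mixed: *Col1a1* was called higher and *Pdgfra* and *Hoxa11* lower. The stromal sum over 5 genes was 1090 to 1360 FPKM in *Wnk1f/f* and 1270 to 1630 FPKM in *Wnk1d/d*. The blood endothelial sums given above did not overlap and were lower in *Wnk1d/d*. The part of stromal or endothelial content in the *Cxcl12* level was not tested.

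*Cx3cl1* and *Cxcl16* are anchored in the cell membrane and shed by ADAM10 and ADAM17. *Cx3cl1*, or fractalkine, of endothelium and epithelium, was 13.77, 21.57, 12.71 and 16.99 FPKM in *Wnk1f/f* and 14.73, 13.21, 14.45, 8.62 and 9.39 FPKM in *Wnk1d/d*, with replicates 4 and 5 of *Wnk1d/d* below the controls. The difference did not pass (log2 fold change -0.40, 95% confidence interval -0.84 to 0.03, limma adjusted p = 0.16). *Cxcl16*, the ligand of CXCR6, was 17.75 to 33.95 FPKM in *Wnk1f/f* and 20.66 to 30.28 FPKM in *Wnk1d/d* (log2 fold change 0.16, limma adjusted p = 0.53), and without the libraries that stand apart its log2 fold change was 0.41 (limma adjusted p = 0.06). The shedding proteases *Adam10* (the most abundant) and *Adam17* and the ligand-trimming peptidase *Dpp4* gave no call among 3 tested.

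*Xcl1*, or lymphotactin, was the only called ligand that fell. It is secreted by NK and T cells and acts on XCR1 of cross-presenting dendritic cells. It was 18.59, 24.29, 32.94 and 34.03 FPKM in *Wnk1f/f* and 11.96, 13.95, 20.47, 11.37 and 20.69 FPKM in *Wnk1d/d*. Replicates 1, 2 and 4 of *Wnk1d/d* were below all controls, and replicates 3 and 5 were between controls 1 and 2. The mean fell from 27.5 ± 7.35 to 15.7 ± 4.57 FPKM, a ratio of 0.571 (log2 fold change -0.77, SE 0.23, limma adjusted p = 0.04, exact permutation p = 0.048). The call was lost in 6 of the 9 fits with 1 library left out, namely without *Wnk1f/f* replicate 2, 3 or 4 or *Wnk1d/d* replicate 1, 2 or 4 (limma adjusted p = 0.057 to 0.11). Without both libraries that stand apart the log2 fold change was -0.56 (limma adjusted p = 0.17).

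NK cell markers summed to 52.7 to 98.4 FPKM in *Wnk1f/f* and 46.4 to 67.7 FPKM in *Wnk1d/d* over 6 genes, *Gzmb* being the most abundant. *Eomes*, a transcription factor of NK cells, fell from 5.66 ± 1.69 to 3.44 ± 0.467 FPKM (log2 fold change -0.56, limma adjusted p = 0.04), and the other 5 were not called. On the receiving side, *Xcr1* had means of 0.802 and 0.398 FPKM and was not tested. *Clec9a*, which marks the same dendritic cells, fell from 1.96 ± 0.799 to 0.976 ± 0.068 FPKM (log2 fold change -0.54, limma adjusted p = 0.043). It passed the 1 FPKM filter only through *Wnk1f/f*. *Itgax* fell from 4.33 ± 1.95 to 1.40 ± 0.256 FPKM (log2 fold change -1.08, limma adjusted p = 0.012), and *Zbtb46*, the most abundant of the 5 dendritic cell markers, was not called. Neither were *Flt3* (log2 fold change -0.45, limma adjusted p = 0.12) and *Cd209a* (log2 fold change -0.04, limma adjusted p = 0.95). The part of NK cell number in the *Xcl1* level was not tested.

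The 12 ligands under 1 FPKM in both genotypes were *Ccl1*, *Ccl3*, *Ccl17*, *Ccl19*, *Ccl20*, *Ccl22*, *Ccl24*, *Ccl26*, *Cxcl2*, *Cxcl3*, *Cxcl11* and *Cxcl13*. They include the ligands of CCR4, CCR6, CCR7 and CXCR5 in the set. *Ccl26* was listed at 0 in all 9 libraries. Besides *Ccl3*, those with a mean of at least 0.5 FPKM in a genotype were *Ccl17* (0.713 and 0.264 FPKM in *Wnk1f/f* and *Wnk1d/d*), *Ccl22* (0.655 and 0.260) and *Cxcl13* (0.823 and 0.550), the first 2 being dendritic cell products and the third the B cell attractant. The highest single value of the 12 was 1.72 FPKM, for *Ccl22* in *Wnk1f/f* replicate 4, and 4 of them had any library above 1 FPKM. In a fit without the filter none of them passed (smallest limma adjusted p = 0.16, for *Ccl17*, the only 1 with an unadjusted p under 0.05).

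**Figure D4:**
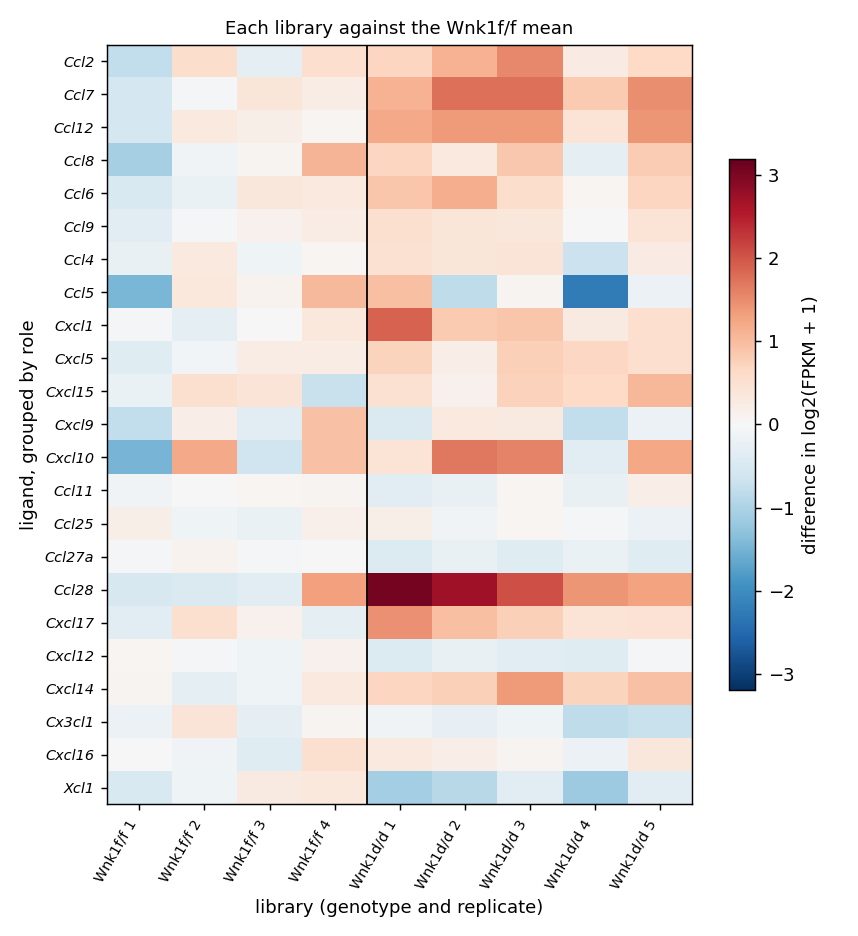
Difference of log2(FPKM + 1) from the *Wnk1f/f* mean for each of the 23 tested ligands (rows, grouped by role) in each of the 9 libraries (columns, 4 *Wnk1f/f* left of the line and 5 *Wnk1d/d* right of it); red is higher and blue lower. *Wnk1f/f* replicate 1 and *Wnk1d/d* replicate 4 are the palest or bluest columns of their genotypes, each the lowest library of its genotype for 15 of 23 ligands.

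Libraries of the same genotype differed in the level of many ligands at once. *Wnk1f/f* replicate 1 was the lowest control for 15 of the 23 tested ligands and replicate 4 the highest for 12. Among *Wnk1d/d*, replicate 4 was the lowest for 15 and replicate 1 the highest for 8. The summed FPKM of the ligands was 454 to 740 in *Wnk1f/f* and 564 to 891 in *Wnk1d/d*, with replicate 1 the lowest control and replicate 4 the lowest of *Wnk1d/d*. Whether the entry that dominates *Wnk1d/d* replicate 4 bears on this was not tested.

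Of the 18 chemokine receptors listed, 8 were tested and 3 called, 1 higher and 2 lower, and the median log2 fold change was -0.47. Over all tested genes 10.3% were called, 5.09% higher and 5.18% lower, and the median was 0.00. *Ccr1*, the receptor of CCL6, CCL7 and CCL9 on monocytes and macrophages, was 1.10, 0.85, 1.36 and 1.48 FPKM in *Wnk1f/f* and 3.17, 2.49, 3.04, 2.21 and 3.37 FPKM in *Wnk1d/d*, without overlap. It rose from 1.20 ± 0.281 to 2.86 ± 0.487 FPKM (log2 fold change 0.81, SE 0.13, limma adjusted p = 0.0053). *Ccr2*, the receptor of CCL2, CCL7 and CCL12, was the most abundant receptor, with means of 23.9 ± 9.42 and 16.5 ± 4.83 FPKM, and was not called (log2 fold change -0.47, limma adjusted p = 0.24). Its log2 fold change was -0.29 without *Wnk1f/f* replicate 4 and -0.15 without both libraries that stand apart (limma adjusted p = 0.73 for the latter).

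*Cxcr4*, the receptor of CXCL12 on leukocytes and endothelial tip cells, was 11.94, 8.55, 10.73 and 14.06 FPKM in *Wnk1f/f* and 4.11, 5.03, 3.94, 4.27 and 3.67 FPKM in *Wnk1d/d*, without overlap. It fell from 11.3 ± 2.30 to 4.20 ± 0.512 FPKM (log2 fold change -1.23, SE 0.13, limma adjusted p = 0.0015). *Cx3cr1*, the fractalkine receptor of macrophages and monocytes, fell from 6.33 ± 1.74 to 3.58 ± 0.546 FPKM, again without overlap (log2 fold change -0.66, SE 0.16, limma adjusted p = 0.02). It did not pass without the libraries that stand apart (limma adjusted p = 0.063), whereas *Cxcr4* and *Ccr1* did. *Cxcr3* (3.66 and 2.25 FPKM), *Ccrl2* (3.24 and 2.43) and *Ccr10* (2.21 and 1.75) were not called. Without the libraries that stand apart the log2 fold change of *Cxcr3* moved from -0.47 to -0.17 and that of *Ccrl2* from -0.33 to -0.07. *Cxcr6* passed the 1 FPKM filter only through *Wnk1f/f* (means of 3.48 and 0.892 FPKM). Its control mean rested on *Wnk1f/f* replicate 4, at 10.41 FPKM, and it was not called. *Ccr3*, *Ccr4*, *Ccr6*, *Ccr7*, *Ccr8*, *Ccr9* and *Cxcr5* were under 1 FPKM in both genotypes.

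**Figure D5:**
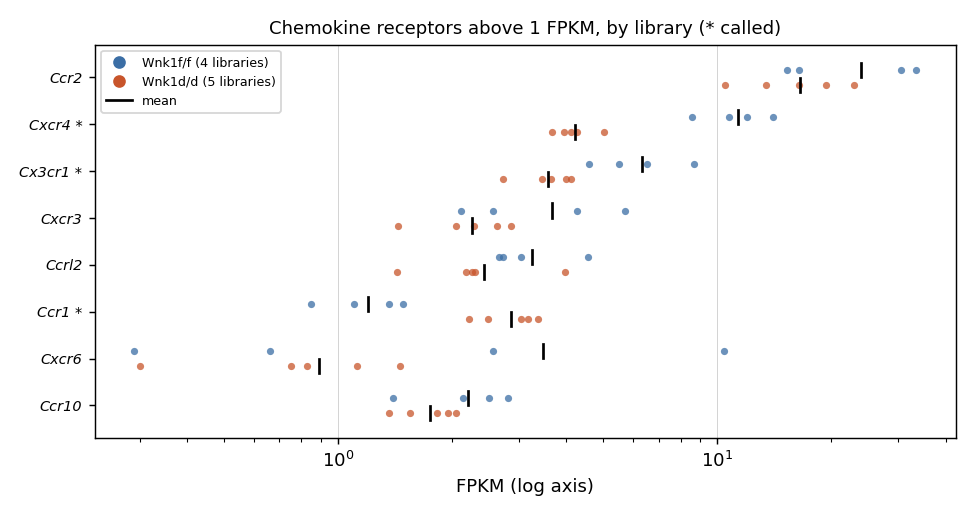
FPKM on a log axis for the 8 tested chemokine receptors, with 1 point per library (blue, 4 *Wnk1f/f*; red, 5 *Wnk1d/d*), a black bar at each mean and a star on called receptors. The *Wnk1d/d* points of *Cxcr4* and *Cx3cr1* lie left of all *Wnk1f/f* points and those of *Ccr1* right of them; *Cxcr6* has 1 *Wnk1f/f* point at 10.41.

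Scavenging receptors, which bind chemokines without signalling to migration, gave no call among 3 tested. *Ackr1*, listed under its older symbol *Darc* and carried by venular endothelium, had means of 7.64 ± 2.12 and 4.85 ± 1.34 FPKM (limma adjusted p = 0.067). *Ackr3* and *Ackr4* (the most abundant in *Wnk1d/d*) were at 18.6 and 17.7 FPKM in *Wnk1f/f* and 16.9 and 17.9 in *Wnk1d/d*.

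Chemokines whose symbols lie outside the pattern were looked at too. *Pf4*, the CXC chemokine of platelets and some macrophages, was 6.48, 8.24, 7.70 and 5.10 FPKM in *Wnk1f/f* and 16.51, 12.39, 15.28, 9.69 and 11.09 FPKM in *Wnk1d/d*, without overlap. It rose from 6.88 ± 1.40 to 13.0 ± 2.85 FPKM (log2 fold change 0.82, SE 0.17, limma adjusted p = 0.012). The platelet marker *Itga2b* had means of 3.63 and 4.34 FPKM and was not called. *Ppbp* was near 0 and *Cklf* was not called. The CCR7 ligand *Ccl21a* is not listed by that symbol. The longest transcript of *Gm21541* is 99.3% identical to that of *Ccl21a* (864 of 870 aligned bases). *Gm21541* had means of 96.1 ± 47.7 and 84.1 ± 18.0 FPKM and was not called (limma adjusted p = 0.81). *Gm1987*, whose identity to *Ccl21a* was not measured, had means of 128 ± 55.8 and 115 ± 26.4 FPKM. It was not called either (limma adjusted p = 0.84). Reads of *Ccl21a* could be split among such copies.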

How the data were processed

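RNA of whole uteri was sequenced, 1 library per mouse, in 4 *Wnk1f/f* and 5 *Wnk1d/d* mice. According to the study's methods and the submitters' processing notes, TruSeq libraries were read as pairs, aligned to mm10 with TopHat 2.0.4 and turned by the authors into FPKM with Cufflinks, for which the processing notes give version 2.0.2 and the methods another one. The gene annotation and the strand setting are not given in the sources used here. The deposited FPKM table holds 1 column per library and no counts, so depth and counting error are unknown.

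FPKM values were used as deposited. Genes with a mean above 1 FPKM in at least 1 genotype were fitted with limma 3.58.1 (R 4.3.3, empirical Bayes with trend) on log2(FPKM + 1), two-sided and unpaired, with Benjamini-Hochberg adjustment over all 14728 genes. A fold change is on that scale and understates the change of low genes, whereas a ratio is of mean FPKM. To be called, a gene needed a ratio of at least 1.5 in either direction besides an adjusted p under 0.05, the thresholds of the study's own definition. Single genes were also tested by an exact two-sided permutation test over the libraries. The script was tested on simulated data with known changes. All ligands above 1 FPKM are named, with their receptors, and of the other lists the called genes (the 3 with the largest change where more than 3 were called) and the most abundant. For some lists further members are named. The ligands and all lists were chosen with earlier results of these data known. Coordinates are those of GENCODE M21 (mm10), to which all 35 ligands matched, and upstream windows those of RefSeq (GRCm38.p6). Alternatives were another pseudocount, filter, scaling, variance model, library weighting, call rule, a replicate block and leaving out libraries. Same-numbered libraries belong to different mice. 1 receptor is not reported here.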

Additional observations from a re-analysis of the deposited data

Results flagged for a closer look

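Over 34 genes (the 23 tested ligands, the 8 tested receptors, *Pf4*, *Csf3* and *Wnk1*), the highest and lowest library of each genotype were compared with the rest of that genotype by Dixon's criterion, which chance alone meets in about 1 in 20 groups; 4 of 68 groups met it, all 4 of them ligands. *Ccl12* was 6.08 FPKM in *Wnk1d/d* replicate 4 against 11.25 to 12.96 FPKM in the other *Wnk1d/d* libraries. *Ccl4* was 0.58 FPKM in the same library against 2.07 to 2.57 FPKM. *Ccl28* was 3.29 FPKM in *Wnk1f/f* replicate 4, the library with liver transcripts, against 0.21 to 0.37 FPKM in the other controls. *Cxcl1* was 4.59 FPKM in *Wnk1d/d* replicate 1 against 0.86 to 1.82 FPKM. The causes of these values were not tested.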

How the results depend on the processing

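*Ccl7*, *Ccl12*, *Ccl28* and *Cxcl14* were called under 19 of 20 alternatives each, the exception being the replicate block, and in all 9 fits that left out 1 library. *Cxcl5* was called under 11 of 19, *Xcl1* under 10 of 20 and *Cxcl17* under 9 of 20. With 1 library left out, 5 to 7 ligands were called, 4 to 7 higher and 0 to 1 lower, along with 3 receptors each time and 21 to 32 genes of the other lists. Called lower were 0 ligands without the filter, with library weights and without the 2 libraries that stand apart (an alternative chosen after seeing the data), and 3 by adjusted p alone. A ratio of at least 2 left 4 ligands, 0 of them lower, and 13 genes of the other lists. With the replicate number as a block, 0 ligands were called in either direction, with 1 receptor, 4 genes of other lists and 218 genes in all, and *Wnk1* had a log2 fold change of -0.52 (limma adjusted p = 0.052). Log2 fold changes under the block were 1.37 for *Ccl7*, 1.10 for *Ccl12*, 2.31 for *Ccl28* and 0.89 for *Cxcl14* (limma adjusted p = 0.055 to 0.085). Same-numbered libraries are from different mice, and the correlations of their deviations were -0.09, 0, 0.02 and -0.27. Log2 fold changes changed sign for *Ccl11* (0.01 with library weights), *Ccl25* (0.00 after quantile normalization, 0.01 with the replicate block, 0.04 without the 2 libraries that stand apart, and -0.10 to 0.04 with 1 library left out), *Ccl5* (-0.93 to 0.01 with 1 library left out, 0.35 without the 2 libraries), *Cxcl9* (0.29 without them) and *Cxcr6* (0.04 without them), and the cause was not tested. None of these 5 genes was called. Without read counts, the depth behind ligands near 1 FPKM is unknown.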

Other observations

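Markers of mast cells, which release and answer to chemokines, were higher in *Wnk1d/d*. *Cma1*, a mast cell chymase and the most abundant of the list, rose from 6.54 ± 0.601 to 12.9 ± 1.42 FPKM (log2 fold change 0.88, SE 0.09, limma adjusted p = 0.0014), with no overlap between the genotypes. *Cpa3*, the carboxypeptidase of mast cell granules, rose from 4.13 ± 1.44 to 8.07 ± 1.73 FPKM (log2 fold change 0.85, limma adjusted p = 0.025), and *Mcpt4* from 5.41 ± 1.39 to 9.37 ± 1.80 FPKM (log2 fold change 0.70, limma adjusted p = 0.017). The summed FPKM of the 5 markers was 17.4 to 27.0 in *Wnk1f/f* and 34.9 to 46.9 in *Wnk1d/d*. Eosinophil markers, the cells that *Ccl11* attracts, had 1 tested gene, *Prg2*, which was not called (2.09 ± 0.910 and 1.08 ± 0.452 FPKM, limma adjusted p = 0.083). Of the lymphatic endothelial markers, whose cells make CCR7 ligands, none of 3 tested was called, *Lyve1* being the most abundant, and none of 3 tested red blood cell markers was, *Hbb-bs* being the most abundant.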
